A study of Mus musculus with 18 samples.

Results

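The 2 groups of wild-type (WT) medullary thymic epithelial cell (mTEC) libraries, which served as controls for a Fezf2 knockout and for an Aire knockout, were compared with each other. They were chosen by their control labels and hold 6 of the 18 RNA-seq libraries of the series, 3 in each group. The series compared Aire knockout, Fezf2 knockout and Chd4 conditional knockout mTECs with controls, and the WT libraries are called below WT for Fezf2 A, B and C and WT for Aire A, B and C, in the order of their barcodes. Both WT groups were C57BL/6 with the genotype WT and no other allele or treatment in the labels, which give no age, sex or housing and name the cell type as TECs, thymic epithelial cells. Libraries were made from total RNA of sorted mTECs with a low-input template-switching kit, and the column names place all 6 in the same sequencing run. Nothing in the labels says whether the triplicates came from separate animals, so the tests weigh differences against the scatter of these libraries, which may be technical. The comparison asks how far preparations of WT mTECs differ in carried-over thymocyte RNA, mTEC subtypes and tissue genes, on autosomal genes only.

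mTECs present self antigens to developing T cells. Under the regulators Aire and Fezf2 mature mTECs transcribe genes that are otherwise restricted to peripheral tissues, and some mTECs go on to take up programmes of keratinocytes, tuft cells, microfold cells, ciliated cells and other peripheral types. Thymocytes adhere closely to thymic epithelium, so that their RNA can be carried along in sorted epithelial cells. In bulk RNA fewer cells of a type and less RNA per cell cannot be told apart.

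The libraries held 4501080, 4150898 and 3935102 exon reads in the WT for Fezf2 and 4834213, 4376914 and 4411652 in the WT for Aire. Levels are given as CPM, exon reads of a gene scaled to the autosomal total of its library after TMM scaling, and a gene with 0 reads could stand at up to 0.646 to 0.794 CPM, taking 3 reads as the floor. The epithelial marker Epcam stood at 576 to 624 CPM in the WT for Fezf2 and 667 to 697 CPM in the WT for Aire. The keratin Krt8 stood at 2365 to 2748 CPM in the WT for Fezf2 and 2623 to 3024 CPM in the WT for Aire. Fezf2, the zinc finger factor that directs part of the tissue gene programme, had 685, 775 and 599.7 CPM in the WT for Fezf2, against 694, 592 and 762 CPM in the WT for Aire (log2 fold change 0.01, SE 0.19). Its groups overlapped, and the sign of this small difference turned without WT for Fezf2 B (-0.09). These defining markers were present in every library.

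The sex of the animals and the state of 1 library come first. The Y-linked genes Ddx3y, Eif2s3y, Kdm5d and Uty summed to 1.11, 0.241 and 0.254 CPM (here of all exon reads) in the WT for Fezf2, against 188, 12.6 and 206 CPM in the WT for Aire, and Xist, which marks the inactive X chromosome, had 60.2, 108 and 74.7 CPM in the WT for Fezf2, against 3.10, 76.1 and 4.31 CPM in the WT for Aire. Taking over 50 CPM of Y-linked genes as male, the 3 WT for Fezf2 libraries and WT for Aire B were female, and WT for Aire A and C were male. Sex and group are therefore partly confounded, and the fit with sex as a term rests on WT for Aire B alone for the group difference. In that fit 0 genes passed with edgeR (lowest adjusted p = 0.547, 1067 genes at an unadjusted p under 0.05).

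WT for Fezf2 B stood apart from the other 5 libraries. In it 721 of 15106 tested genes lay more than 2-fold above every other library and 907 more than 2-fold below, whereas the other libraries had 8 to 31 genes above and 94 to 238 below. Across genes its log2 levels correlated with those of the other libraries at r = 0.871 to 0.890, and the remaining library pairs at 0.942 to 0.967. The median absolute difference between WT for Fezf2 A and B was 0.58 on the log2 scale, against 0.22 between WT for Fezf2 A and C and 0.25 to 0.27 within the WT for Aire. Genes were split into 4 equal classes by transcript length, and each library was set against the mean of the other 5 libraries. In WT for Fezf2 B the shortest class (231 to 2041 bases) lay at a median of 0.61 above that mean on the log2 scale. The 2 longest classes lay at -0.30 and -0.29. The mitochondrial leucyl-tRNA synthetase gene Lars2 stood at 14630 CPM in this library and at 1032 to 1804 CPM in the other 5. Chd4, the remodeller that gives the Chd4 conditional knockout its name, had 43.8, 135 and 45.9 CPM in the WT for Fezf2, against 35.0, 42.7 and 47.7 CPM in the WT for Aire (0.84, adjusted p = 0.45). Results are therefore given with all 6 libraries and without WT for Fezf2 B, a library left out after its values were seen, so that the second set leaves 2 libraries against 3.

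With all 6 libraries 8 of 15106 genes passed (edgeR quasi-likelihood, Benjamini-Hochberg adjusted p under 0.05), which is 0.053%, with 7 higher (0.0463%) and 1 lower (0.00662%) in the WT for Fezf2. Without WT for Fezf2 B 649 of 15568 genes passed (4.17%), with 321 higher (2.06%) and 328 lower (2.11%), and the biological coefficient of variation was 0.169 in place of 0.279. All 8 genes called with 6 libraries were also called without WT for Fezf2 B. Of the genes called without it, 188 of the higher and 88 of the lower differed at least 2-fold, and the median differences were 2.13-fold and 1.74-fold. DESeq2 on all 6 libraries called 422 genes (2.79%), 279 higher (1.85%) and 143 lower (0.947%). The groups did not overlap in 3085 genes with all 6 libraries (20.4%, with 10.4% higher and 10% lower) and in 5570 without WT for Fezf2 B (35.8%, with 17.6% higher and 18.2% lower). Over all genes the median log2 fold change was 0.03 with 6 libraries and -0.0034 without WT for Fezf2 B. Called genes were spread over the autosomes, from 2.43% of those tested on chromosome 12 to 5.24% on chromosome 3 in the fit without WT for Fezf2 B.

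**Figure D1:**
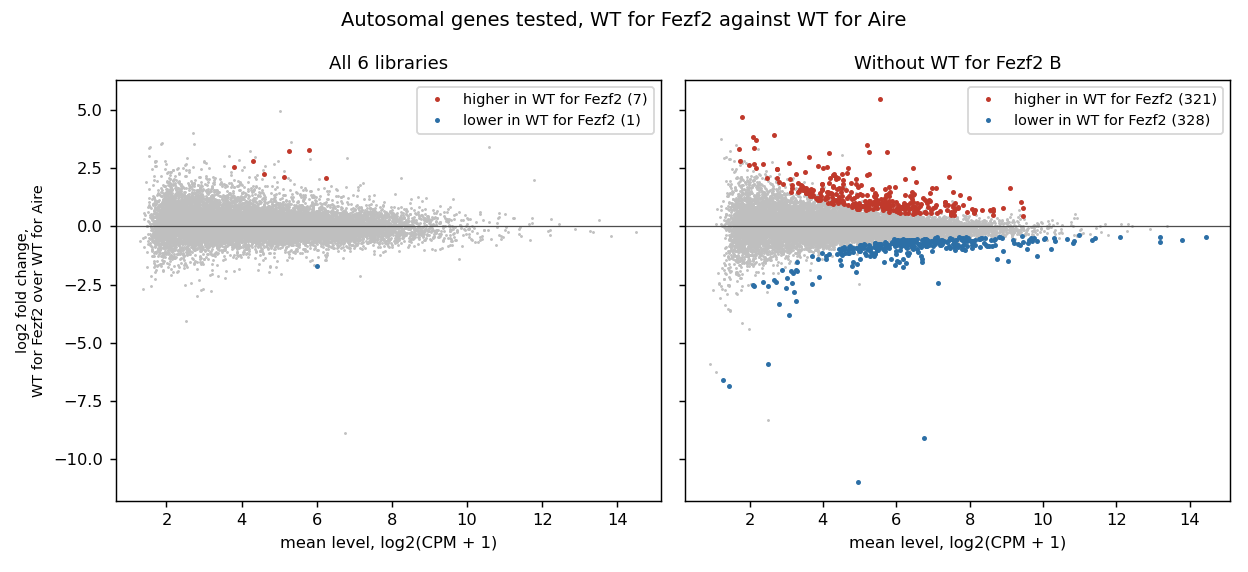
Log2 fold change of each tested autosomal gene (vertical axis) against its mean level as log2(CPM + 1) (horizontal axis), with all 6 libraries on the left and without WT for Fezf2 B on the right. Coloured points passed an adjusted p of 0.05, 7 higher and 1 lower on the left, 321 higher and 328 lower on the right.

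Genes of developing T cells had the highest median difference of the 40 lists examined, and all 28 of them lay higher in the WT for Fezf2. Of the 28, 4 passed with 6 libraries (Dntt, Cd8a, Lck and Ptprc), 23 without WT for Fezf2 B and 26 with DESeq2 on all 6, and 0 were lower in any of these fits. Over all genes 0.053% passed with 6 libraries, 4.17% without WT for Fezf2 B and 2.79% with DESeq2. The median log2 fold change of the list was 2.13 with 6 libraries and 2.04 without WT for Fezf2 B. With 6 libraries 25 of the 28 genes lay higher without overlap between groups, against 10.4% of all genes. The summed level of the list was 1895, 1720 and 1152 CPM in the WT for Fezf2, against 381, 455 and 587 CPM in the WT for Aire. The lowest WT for Fezf2 library, C, thus lay above the highest WT for Aire library. The median level of the list on the log2(CPM + 1) scale was 5.49, 5.23 and 4.63 in the WT for Fezf2, all taken as female. It was 3.26 in WT for Aire B, taken as female, and 2.55 and 3.38 in WT for Aire A and C, taken as male. With sex as a term the median of the list was 1.999, and 0 of its members passed. That fit rests on WT for Aire B alone for the group difference, so sex and group cannot be told apart here.

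Dntt encodes the terminal transferase that adds bases to the joins of antigen receptor genes. The gene (ENSMUSG00000025014, GRCm38 chromosome 19, 41029275 to 41059523) had 123, 109 and 64.4 CPM in the WT for Fezf2, against 5.28, 12.03 and 13.2 CPM in the WT for Aire. Dntt averaged 98.7 ± 30.5 CPM in the WT for Fezf2 and 10.2 ± 4.26 CPM in the WT for Aire (SD, n = 3 each), a log2 fold change of 3.28 (SE 0.37, adjusted p = 0.0307 with edgeR). Cd8a, the alpha chain of the CD8 coreceptor (ENSMUSG00000053977, chromosome 6, 71373427 to 71379173), had 92.0, 71.0 and 41.0 CPM in the WT for Fezf2, against 2.86, 8.84 and 9.87 CPM in the WT for Aire. It differed by 3.25 (SE 0.44, adjusted p = 0.0449). Its partner chain Cd8b1 had 95.9, 83.4 and 34.7 CPM in the WT for Fezf2, against 4.3995, 1.96 and 11.04 CPM in the WT for Aire and just missed the threshold with 6 libraries (3.61, SE 0.55, adjusted p = 0.051). In all 3 genes WT for Fezf2 C was the lowest of its group and still stood above every WT for Aire library.

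The promoter windows of Dntt and Cd8a, the 2 of these genes that passed with 6 libraries, are shown beside that of Lypd5, the gene outside the list with the smallest adjusted p, so that the starts of genes that differed together can be compared. They are from RefSeq on GRCm38.p6, on the plus strand, from 250 bases before to 50 bases after the start. Capitals mark matches to the letters CAGNTG or their reverse CANCTG, which are only some forms of the E-box CANNTG.
Dntt chr19:41029025-41029324: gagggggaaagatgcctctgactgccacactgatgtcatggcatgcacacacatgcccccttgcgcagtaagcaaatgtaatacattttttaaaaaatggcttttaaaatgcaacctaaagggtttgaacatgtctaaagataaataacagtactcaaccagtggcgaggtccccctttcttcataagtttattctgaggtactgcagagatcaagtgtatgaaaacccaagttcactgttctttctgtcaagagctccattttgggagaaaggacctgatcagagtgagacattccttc
Cd8a chr6:71373177-71373476: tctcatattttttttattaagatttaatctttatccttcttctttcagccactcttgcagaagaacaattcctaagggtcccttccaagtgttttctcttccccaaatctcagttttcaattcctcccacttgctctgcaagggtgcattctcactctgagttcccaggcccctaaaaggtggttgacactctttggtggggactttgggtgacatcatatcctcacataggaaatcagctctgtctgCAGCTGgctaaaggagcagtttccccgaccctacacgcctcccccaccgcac
Lypd5 chr7:24348946-24349245: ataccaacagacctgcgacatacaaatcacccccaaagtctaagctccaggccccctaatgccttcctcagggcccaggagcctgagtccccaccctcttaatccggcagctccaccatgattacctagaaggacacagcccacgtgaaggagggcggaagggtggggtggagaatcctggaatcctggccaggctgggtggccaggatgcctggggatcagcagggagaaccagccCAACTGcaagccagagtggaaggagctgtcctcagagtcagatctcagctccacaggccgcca
E-boxes are the sites of E proteins, factors used in thymocyte development. Other forms of the E-box were not searched and are not marked, so a window without a match may still hold an E-box. The searched letters matched once in the Cd8a window, 2 bases before the start, once in the Lypd5 window, 13 bases before it, and 0 times in the Dntt window. Of the 28 thymocyte genes 22 had windows, 41 in all since some genes have several starts whose windows can overlap, and 30 of the 41 (73.2%) held the letters, against 51.4% of all 32851 windows. A match describes the letters only.

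The kinase and surface phosphatase genes of T cell signalling also passed with 6 libraries. Lck, the Src-family kinase that starts T cell receptor signalling, had 143, 127 and 95.01 CPM in the WT for Fezf2, against 18.9, 30.4 and 37.6 CPM in the WT for Aire (2.07, SE 0.28, adjusted p = 0.0449). Ptprc, which encodes CD45, the phosphatase on nearly all blood cells, had 69.3, 50.6 and 47.4 CPM in the WT for Fezf2, against 12.5, 10.1 and 15.5 CPM in the WT for Aire (2.13, SE 0.27, adjusted p = 0.0449). The groups of libraries were separated in both. Of the CD3 chains, Cd3g had 52.4, 81.2 and 38.8 CPM in the WT for Fezf2, against 4.84, 12.3 and 16.0 CPM in the WT for Aire, and Cd3d and Cd3e were also higher in every WT for Fezf2 library. None of the 3 passed with 6 libraries (adjusted p = 0.0738 for Cd3g, 0.0952 for Cd3d and 0.133 for Cd3e), and all 3 rose without WT for Fezf2 B (2.05, 2.07 and 1.89). Themis, a regulator of thymocyte selection, had 51.0, 16.9 and 32.4 CPM in the WT for Fezf2, against 4.84, 8.35 and 8.46 CPM in the WT for Aire, and rose by 2.53 without WT for Fezf2 B (SE 0.29, adjusted p = 0.00107).

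The recombinase genes Rag1 and Rag2, active in cortical thymocytes, were higher in every WT for Fezf2 library. Rag1 had 43.6, 36.7 and 16.2 CPM in the WT for Fezf2, against 0.44, 3.44 and 6.34 CPM in the WT for Aire. Their counts are uncertain, since the gene B230118H07Rik, with 436 reads in the 6 libraries, overlaps both, beside 438 reads of Rag1 and 138 of Rag2. Cd27, a costimulatory receptor with 353 reads, likewise overlaps Vamp1, with 669, and Cd247, with 476, overlaps Pou2f1, with 534. The 3 list genes whose groups overlapped with 6 libraries were Thy1, Ptcra and Cd247. Thy1, a surface glycoprotein of thymocytes, had 6.16, 64.1 and 4.56 CPM in the WT for Fezf2, against 1.76, 4.66 and 3.76 CPM in the WT for Aire, so that its log2 fold change of 2.86 came down to 0.66 without WT for Fezf2 B. Tcf7, a T lineage factor, differed least of the list with 6 libraries and had 339, 262 and 239 CPM in the WT for Fezf2, against 150, 134 and 177 CPM in the WT for Aire (0.87, SE 0.21). The 5 genes that did not pass without WT for Fezf2 B were Cd247, Cd2, Zap70, Ptcra and Thy1.

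**Figure D2:**
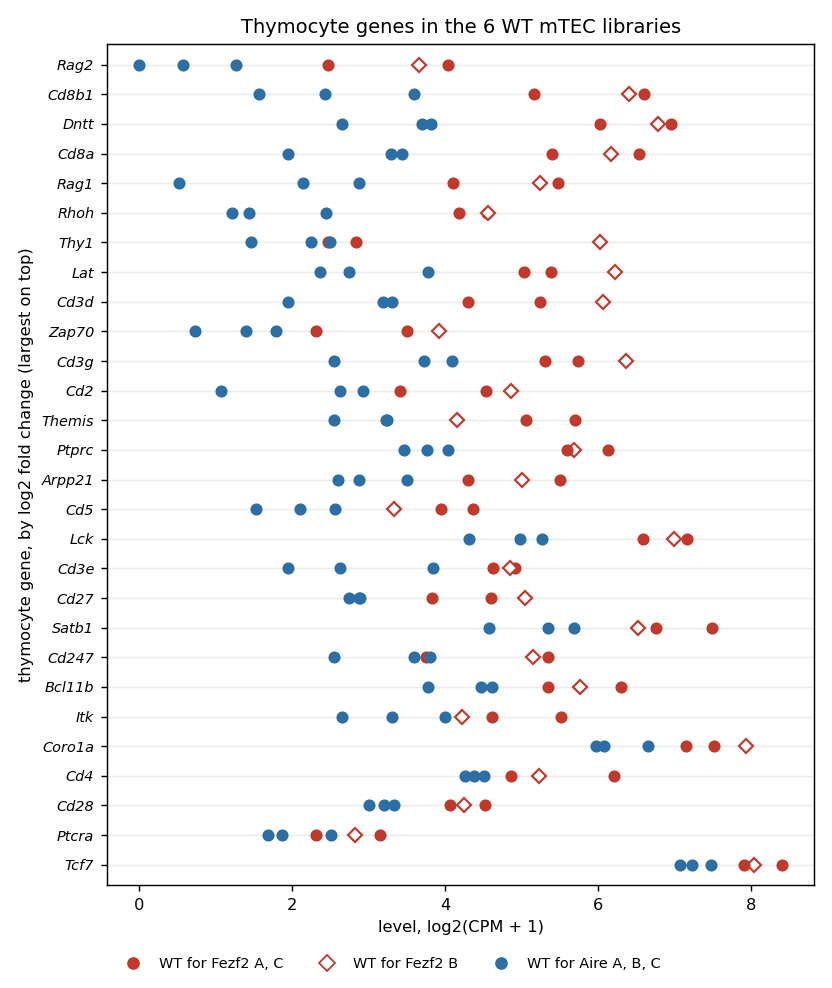
Level of each of the 28 thymocyte genes as log2(CPM + 1) in the 6 libraries, ordered by log2 fold change with the largest on top. Red marks are WT for Fezf2 (the open diamond is library B) and blue marks are WT for Aire. Apart from Thy1, Ptcra and Cd247 every red mark lies to the right of every blue mark.

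In the same sequencing run the 3 Fezf2 KO libraries held 685 to 754 CPM of the thymocyte list and the 3 Aire KO libraries 500 to 647 CPM, on the scale of the 12 libraries. On that scale the WT for Fezf2 held 1845, 1656 and 1121 CPM and the WT for Aire 370 to 571 CPM. The WT for Fezf2 libraries were thus the 3 highest of the 12 for this list.

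Among markers of other blood and stromal cells, 0 passed with 6 libraries. Of 12 B cell genes 0 passed with 6 libraries, and without WT for Fezf2 B Cd79a and the IgE receptor gene Fcer2a rose and the complement receptor gene Cr2 fell (median 0.03, and -0.06 with 6 libraries). Fcer2a had 149, 132 and 359 CPM in the WT for Fezf2, against 123, 126 and 123 CPM in the WT for Aire, so that WT for Fezf2 C was alone in its high level. Of 10 tested myeloid and dendritic genes, 8 endothelial genes and 9 fibroblast genes 0 passed without WT for Fezf2 B. Of 4 tested genes of cytotoxic and innate lymphocytes the chemokine Xcl1 rose, and all 4 were higher (median 1.53). Over all genes 49.5% were higher in this fit. On the scale of the 12 libraries Xcl1 had 8.56, 5.01 and 5.03 CPM in the WT for Aire. In the Aire KO it had 0, 0.685 and 0 CPM. Which cells its reads came from was not tested. Of 7 tested erythroid genes the 4 globins Hba-a1, Hba-a2, Hbb-bs and Hbb-bt fell without WT for Fezf2 B (median -1.59, and -0.93 with 6 libraries). Without B 5 of the 7 were lower and 2 higher, and of all genes 2.06% rose and 2.11% fell. Hbb-bs had 46.6, 69.6 and 39.5 CPM in the WT for Fezf2, against 106, 331 and 254 CPM in the WT for Aire, with no overlap (-2.15, SE 0.39, adjusted p = 0.074 with 6 libraries). The globin genes are near-identical copies, so reads may be split between them.

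Of 12 genes of mTEC maturation 10 were lower in the WT for Fezf2, although 0 passed with all 6 libraries. Over all genes 52.8% were higher with 6 libraries, and 2.06% rose and 2.11% fell without WT for Fezf2 B. Without WT for Fezf2 B 5 of the 12 fell, namely Aire, Cd86, Ccl22, Hdc and Ctss, 0 rose, and the list median was -0.44 (-0.52 with 6 libraries). Aire, the regulator of tissue-restricted genes (chromosome 10, 78030022 to 78043610), had 1362, 1147 and 1307 CPM in the WT for Fezf2, against 2117, 1981 and 2505 CPM in the WT for Aire. The gene Dnmt3l on the other strand overlaps it, with 1846 reads beside 43855 in the 6 libraries. Every WT for Fezf2 library, B included, lay below every WT for Aire library (-0.79, SE 0.19, adjusted p = 0.121 with 6 libraries, and -0.73, SE 0.12, adjusted p = 0.00491 without B). Cd86, a costimulatory ligand, had 43.1, 32.0 and 48.9 CPM in the WT for Fezf2, against 91.1, 85.9 and 62.0 CPM in the WT for Aire. Hdc, histidine decarboxylase, had 1061, 677 and 1031 CPM in the WT for Fezf2, against 1561, 1351 and 1453 CPM in the WT for Aire. The costimulator Cd80 and the receptor Tnfrsf11a, which encodes RANK, were also lower in each WT for Fezf2 library (adjusted p = 0.164 for Cd80 and 0.0873 for Tnfrsf11a without B), while Fezf2 and Ccl17 showed no such separation.

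MHC class II genes, whose products present antigen to CD4 T cells, were lower in the WT for Fezf2 for all 10 genes tested. Over all genes 52.8% were higher with 6 libraries, and 2.11% fell without WT for Fezf2 B. None of the 10 passed with 6 libraries (median -0.19), and without WT for Fezf2 B H2-Aa, H2-Ab1, H2-Eb1, H2-Ob and the invariant chain Cd74 fell (median -0.45). Cd74 had 17947, 26844 and 18554 CPM in the WT for Fezf2, against 27177, 26606 and 22072 CPM in the WT for Aire. WT for Fezf2 B lay within the range of the WT for Aire and the other WT for Fezf2 libraries below it. H2-Ob, a subunit of the class II modulator, had 110.7, 112 and 106 CPM in the WT for Fezf2, against 148, 151 and 160.0 CPM in the WT for Aire, with no overlap. Of 12 MHC class I genes 0 passed in either fit (median 0.01 without B).

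Of 11 genes of mTEC-lo cells, the less mature mTECs, 9 were lower in the WT for Fezf2 in either fit. Without WT for Fezf2 B the basal keratin Krt14, the chemokine Ccl21a and the cytokine receptor Lifr fell and the keratin Krt15 rose. The list median was -0.35 without B and -0.45 with 6 libraries. In the fit without B 49.5% of all genes were higher, 2.06% rose and 2.11% fell. Lifr had 27.3, 14.9 and 21.3 CPM in the WT for Fezf2, against 50.6, 67.5 and 42.5 CPM in the WT for Aire (-1.33, SE 0.28, adjusted p = 0.11 with 6 libraries). Of 10 cortical TEC genes 8 were higher without WT for Fezf2 B and 6 with 6 libraries. Psmb11, the thymus-specific proteasome subunit, the protease Prss16 and the chemokine Cxcl12 rose without B. Prss16 had 143, 49.5 and 228 CPM in the WT for Fezf2, against 36.7, 72.7 and 68.1 CPM in the WT for Aire, so that the groups overlapped through WT for Fezf2 B. Without B it differed by 1.65 (SE 0.24, adjusted p = 0.00368) and with B by 1.25 (adjusted p = 0.318). Of 11 tested genes of TEC identity 0 passed in either fit. Foxn1, the master regulator of thymic epithelium, had 244, 157 and 247 CPM in the WT for Fezf2, against 176, 23.6 and 147 CPM in the WT for Aire, and WT for Aire B was alone in its low level.

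**Figure D3:**
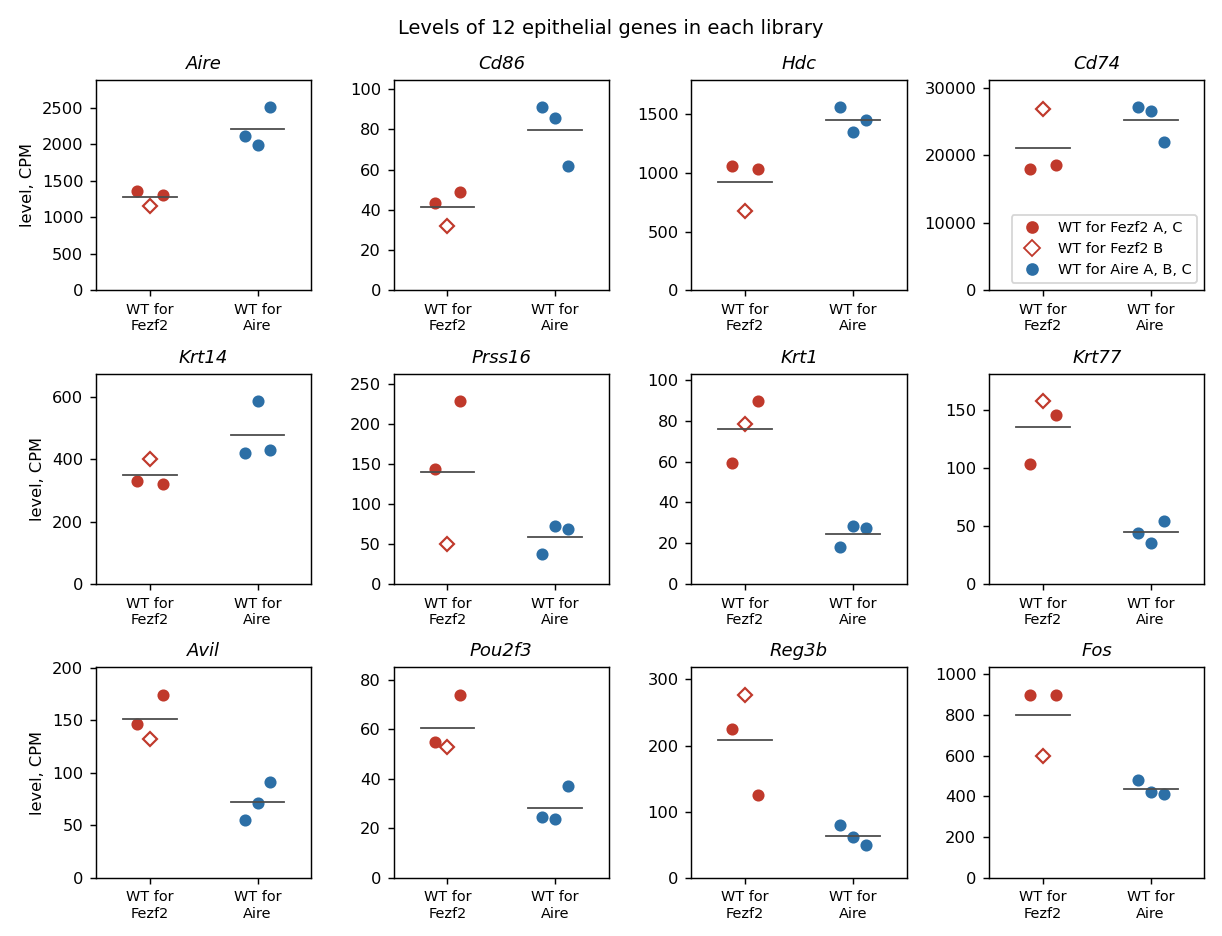
Level in CPM of 12 genes of the epithelium in each library, with WT for Fezf2 on the left of each panel (open diamond, library B) and WT for Aire on the right, and lines at the group means. Aire, Cd86 and Hdc lie lower in every WT for Fezf2 library, Krt1, Krt77, Avil, Pou2f3, Reg3b and Fos lie higher in every one, and Cd74 and Prss16 overlap through library B.

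Of 20 genes of cornifying keratinocytes 17 were higher in the WT for Fezf2. Over all genes 52.8% were higher with 6 libraries, and 2.06% rose without WT for Fezf2 B. Of the 20, 0 passed with 6 libraries, and without WT for Fezf2 B 9 rose (Krt1, Krt10, Krt77, Krt80, Sbsn, Krtdap, Spink5, Cnfn and Lypd3) and the desmoglein Dsg1a fell. The list median was 0.86 with 6 libraries and 0.76 without B. With DESeq2 on all 6 libraries 8 of the 20 rose and 0 fell. Krt1, a keratin of suprabasal layers, had 59.4, 78.5 and 89.7 CPM in the WT for Fezf2, against 18.04, 28.2 and 27.2 CPM in the WT for Aire (1.63, SE 0.25, adjusted p = 0.0545 with 6 libraries and 0.00254 without B). Krt77, another keratin of the skin, had 103, 157 and 145 CPM in the WT for Fezf2, against 44.2, 35.1 and 54.3 CPM in the WT for Aire (1.60, SE 0.24, adjusted p = 0.051 and 0.00175). In both the WT for Fezf2 libraries, B included, stood above all WT for Aire libraries. Krtdap, a secreted keratinocyte protein, had 276, 869 and 326 CPM in the WT for Fezf2, against 102, 101 and 145 CPM in the WT for Aire, and its difference of 2.08 became 1.37 without B.

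Tuft cell genes were higher in the WT for Fezf2 for all 15 members. Over all genes 52.8% were higher with 6 libraries, and 2.06% rose without WT for Fezf2 B. Of the 15, 0 passed with 6 libraries and 5 rose without WT for Fezf2 B (Trpm5, Pou2f3, Avil, Gnat3 and Plcb2), while 0 fell, with medians of 0.94 and 0.96. Pou2f3, the transcription factor that specifies tuft cells, had 54.8, 53.0 and 74.0 CPM in the WT for Fezf2, against 24.4, 23.6 and 37.1 CPM in the WT for Aire (1.09, SE 0.25, adjusted p = 0.115 with 6 libraries and 0.0114 without B). Avil, the actin-binding advillin of tuft cells, had 146, 132 and 174 CPM in the WT for Fezf2, against 54.8, 71.4 and 91.4 CPM in the WT for Aire. The gene Tsfm on the other strand overlaps part of it, with 571 reads beside 2760. Trpm5, the cation channel of taste and tuft cells, had 96.8, 85.4 and 134 CPM in the WT for Fezf2, against 40.5, 50.3 and 74.2 CPM in the WT for Aire. Tssc4 on the other strand overlaps Trpm5, with 816 reads beside 1984. WT for Aire C was the highest of its group in each of these 3 genes, and WT for Fezf2 C the highest of its own.

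The remaining cell types that mTECs mimic are given for the fit without WT for Fezf2 B. Of 13 ciliated cell genes Ccdc39 and Tppp3 rose (median 0.97), of 11 microfold cell genes the decoy receptor Tnfrsf11b fell (median -0.28), of 10 tested neuroendocrine genes the factor Insm1 fell (median 0.01), and of 19 tested muscle genes the sarcomere gene Ttn fell (median -0.01). Of 6 tested ionocyte genes 0 passed (median 0.47). Over all genes 4.17% passed in this fit, and nothing is read from 1 or 2 calls in a list, here or in the lists that follow. Tnfrsf11b, osteoprotegerin, had 494, 208 and 385 CPM in the WT for Fezf2, against 735, 782 and 619 CPM in the WT for Aire. Ccdc39, with 73 reads in the 6 libraries, overlaps Ttc14 on the other strand, with 1697, so its count is uncertain.

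Among peripheral tissues, 5 of 12 tested airway genes rose and 0 fell without WT for Fezf2 B (median 0.75, and 1.07 with 6 libraries). These were the surfactant protein Sftpd, the club cell secretoglobin Scgb1a1, the mucin Muc5ac and the airway lipid-binding proteins Bpifa1 and Bpifb1. Among all tested genes 2.06% rose and 2.11% fell without B. Scgb1a1 had 86.0, 186 and 115 CPM in the WT for Fezf2, against 55.4, 56.0 and 45.3 CPM in the WT for Aire (1.30, SE 0.28, adjusted p = 0.11 with 6 libraries and 0.00821 without B). Of 20 intestinal genes Reg3b, Muc13 and Tff3 rose and the homeobox gene Cdx1 fell (median 0.19, and 0.52 with 6 libraries). Reg3b, an antimicrobial lectin, had 225, 277 and 125 CPM in the WT for Fezf2, against 80.1, 61.1 and 50.03 CPM in the WT for Aire, without overlap. Of 13 tested pancreatic genes glucagon (Gcg) and the chymotrypsinogen Ctrb1 rose and all 13 were higher (median 0.67, and 0.94 for the 12 tested with 6 libraries). Over all genes 49.5% were higher without B. Of the liver genes Hp rose and F2 fell among 18, of the brain genes Calb2 rose among 13, and of the salivary and milk genes Dcpp3 rose and the casein Csn2 fell among 13. Dcpp3 belongs to a family of near-identical genes, so its count is uncertain. Of the tested testis (6), kidney (7), eye (7) and pituitary and thyroid (6) genes 0 passed.

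Immediate-early genes, which respond within minutes to cell handling and signals, were higher in the WT for Fezf2 for 15 of 18 tested. Over all genes 52.8% were higher with 6 libraries, and 2.06% rose without WT for Fezf2 B. Of the 18, 0 passed with 6 libraries and 7 rose without WT for Fezf2 B (Fos, Fosb, Egr1, Egr2, Ier2, Atf3 and Dusp1), while 0 fell (median 0.28, and 0.41 with 6 libraries). Fos had 898, 598 and 899 CPM in the WT for Fezf2, against 482, 421 and 410 CPM in the WT for Aire (0.87, SE 0.21, adjusted p = 0.138 with 6 libraries, and 1.03, SE 0.11, adjusted p = 0.000789 without B). Fosb had 31.5, 70.4 and 34.2 CPM in the WT for Fezf2, against 10.8, 9.57 and 10.3 CPM in the WT for Aire, with no overlap. These genes moved with the thymocyte and tissue genes across the 2 groups, and their part in those differences was not tested. Of the other states, the 14 NF-kB genes, 10 heat shock genes, 13 circadian genes and 16 cell cycle genes had 0 members that passed without B. The interferon-stimulated Mx1 and the hypoxia gene Adm fell, Xbp1 rose and Hsp90b1 fell among 10 genes of the unfolded protein response, Sgk1 rose and Mt1 fell among 9 glucocorticoid-response genes, and Tnc rose and Col4a2 fell among 12 matrix genes. Adm, the peptide hormone adrenomedullin, had 267, 263 and 290 CPM in the WT for Fezf2, against 497, 501 and 478 CPM in the WT for Aire, with little spread in either group.

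**Figure D4:**
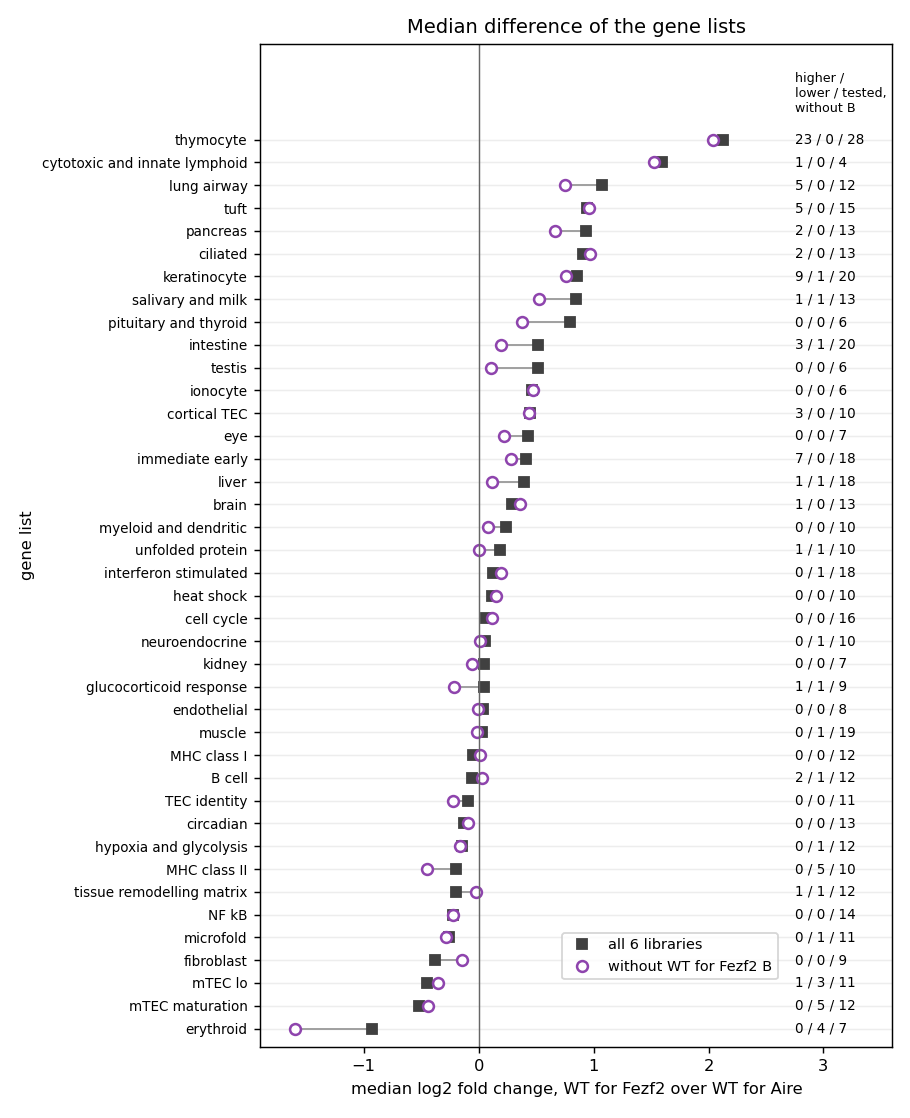
Median log2 fold change of each of the 40 gene lists with all 6 libraries (squares) and without WT for Fezf2 B (circles). Numbers on the right give members called higher, called lower and tested without B. The thymocyte list lies farthest to the right at 2.13 and 2.04, and the erythroid list farthest to the left at -0.93 and -1.59.

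The remaining genes called with 6 libraries lie outside the lists. Lypd5, a member of the Ly6 family of surface proteins (ENSMUSG00000030484, chromosome 7, 24349196 to 24355109), had 36.5, 35.9 and 42.6 CPM in the WT for Fezf2, against 8.14, 9.08 and 7.05 CPM in the WT for Aire. Lypd5 averaged 38.3 ± 3.68 CPM in the WT for Fezf2 and 8.09 ± 1.02 CPM in the WT for Aire (SD, n = 3 each), and the difference of 2.24 (SE 0.25, adjusted p = 0.0307) had little spread in either group, library B included. Parvg, the parvin of blood cells, had 27.9, 20.7 and 17.7 CPM in the WT for Fezf2, against 3.96, 3.19 and 3.99 CPM in the WT for Aire (2.57, SE 0.33, adjusted p = 0.0449). Endou, an endoribonuclease, had 30.4, 43.4 and 24.6 CPM in the WT for Fezf2, against 4.18, 2.70 and 7.05 CPM in the WT for Aire (2.81, SE 0.39, adjusted p = 0.0483). The gene that was lower, the lincRNA RP24-286J21.7 (chromosome 8, 121833247 to 121841178), had 35.6, 22.1 and 31.2 CPM in the WT for Fezf2, against 91.1, 99.9 and 97.5 CPM in the WT for Aire (-1.69, SE 0.22, adjusted p = 0.0449). It overlaps the protein-coding Gm20388 on the same strand, with 1238 reads beside 1601, so this value may belong to either gene. The calls of all 8 genes were lost, with the sign kept, without WT for Fezf2 A or any single WT for Aire library, the lowest adjusted p over all genes then being 0.0526 without WT for Fezf2 A, 0.153 without WT for Aire A and 0.415 without WT for Aire B, while 2 other genes passed without WT for Aire C.

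Further genes were called without WT for Fezf2 B, and the size of the Defa3 difference came mainly from a single library. Defa3, an antimicrobial defensin, had 4.62, 4.97 and 174 CPM in the WT for Fezf2, against 1.76, 2.70 and 1.41 CPM in the WT for Aire. Its rise was 5.49, and WT for Fezf2 C stood alone among the 6 libraries at its high level. On the scale of the 12 libraries Defa3 had 493, 367 and 2.83 CPM in Fezf2 KO A, B and C. Eno1b, a gene near-identical to the glycolytic enolase Eno1, had 0.66, 0.553 and 0 CPM in the WT for Fezf2, against 366, 259 and 10.3 CPM in the WT for Aire. Without WT for Fezf2 B it had 3 reads in the WT for Fezf2 and 2764 in the WT for Aire, 608-fold fewer after scaling (exact 95% counting interval 208 to 2948). On the scale of the 12 libraries Eno1b had 447, 475 and 394 CPM in the Aire KO and 0.18, 0.634 and 0.471 CPM in the Fezf2 KO. Reads of Eno1 may be split with it, so the value is uncertain. Hist1h2bq, a histone gene with many copies, had 2.20, 7.46 and 1.01 CPM in the WT for Fezf2, against 17.4, 11.3 and 17.1 CPM in the WT for Aire, and reads of its copies may be split. Nnt, the mitochondrial transhydrogenase that is partly deleted in the C57BL/6J substrain, had 46.9, 33.7 and 36.2 CPM in the WT for Fezf2, against 22.4, 24.1 and 20.4 CPM in the WT for Aire (0.80, SE 0.23, adjusted p = 0.193 with 6 libraries and 0.0259 without B). Its groups did not overlap, and it was read in all 6 libraries. Other genes with large rises were Aadacl2, Prrt1, Rhoh (of the thymocyte list), Smyd1, Ccdc153 and Kcnip1. Large falls were those of Zfp990, Kcnab1, Glis2, Khdc1a, Afm, Klrb1f, Sfrp5 and Adamtsl1. The groups of Glis2 and Khdc1a overlapped with 6 libraries. Smyd1, with 178 reads, overlaps Krcc1, with 2186, and Kcnip1, with 88, overlaps Kcnmb1, with 65. Glis2, with 133, overlaps Pam16, with 406, and Adamtsl1, with 233, overlaps Sh3gl2, with 87. The counts of these 4 genes are uncertain. Sfrp5, a secreted Wnt inhibitor, had 13.6, 17.4 and 9.63 CPM in the WT for Fezf2, against 50.8, 53.3 and 30.5 CPM in the WT for Aire, without overlap.

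The number of genes detected was close between the groups. At an equal depth of 3779122 autosomal reads 20719, 20293 and 20849 genes had at least 1 read in the WT for Fezf2, against 20657, 20107 and 20545 in the WT for Aire (20620.5 ± 291 in the WT for Fezf2 and 20436.5 ± 291 in the WT for Aire, SD, n = 3 each, exact two-sided permutation p = 0.5). Genes with at least 5 reads numbered 16801, 16863 and 16839 in the WT for Fezf2, against 16420, 16238 and 16644 in the WT for Aire, a difference of 400.2 (exact p = 0.1, the smallest that 3 against 3 can give). The groups overlapped in the first count and not in the second. Within groups the median SD of log2 CPM over genes was 0.39 in the WT for Fezf2 and 0.22 in the WT for Aire, and without WT for Fezf2 B it was 0.16 in the WT for Fezf2 and 0.23 in the WT for Aire.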

How the data were processed

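RNA-seq libraries of sorted mouse mTECs were analysed from the deposited exon read counts per gene, which the authors gave as whole numbers per library and which are not normalised, per the file headers. The submitters' processing notes name mm10, GRCm38 and DESeq2; no label or header states the aligner, the counter or the use of strand, so reads of overlapping genes cannot be told apart. Since a column is named by group and barcode alone, letters A, B and C follow the barcodes, and 240 per-library columns were not used. Autosomal genes were kept with edgeR's expression filter, scaled by TMM and tested with edgeR's quasi-likelihood F test (edgeR 4.0.16, R 4.3.3) with Benjamini-Hochberg adjustment over all genes tested; SE is the log2 fold change divided by the root of F. DESeq2 1.42.0 and limma 3.58.1 (voom with sample quality weights) served as alternatives, beside other scalings, no filter, all chromosomes, 12 libraries, sex as a term and leaving out each library. The voom fit and the full description without WT for Fezf2 B were chosen after seeing the data. The members and gene lists were chosen with earlier results of these data known. Named genes are, per direction, up to 12 called protein-coding genes with the largest change whose groups did not overlap, up to 4 called members of each list (with none called, the 2 with the smallest p), any thymocyte gene, and Aire, Fezf2, Chd4 and Nnt; the same rule was applied without WT for Fezf2 B, and 1 gene it names is not reported here. Other genes given with values were chosen from the lists after their values were seen. The tests were checked on simulated counts. Exon reads ran from 3935102 to 4834213 per library, and intervals and floors cover counting error only.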

Additional observations from a re-analysis of the deposited data

Results flagged for a closer look

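Reads of the Y-linked genes Ddx3y, Eif2s3y, Kdm5d and Uty lie outside the autosomal comparison and were seen above the limit that a count of 0 allows in 4 libraries. WT for Fezf2 A had 5 such reads. WT for Aire A had 910, WT for Aire B 55 and WT for Aire C 908. The 55 reads of WT for Aire B stood beside an Xist level of 76.1 CPM, and the source of these reads was not tested.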

How the results depend on the processing

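The number of genes called, 8 with 7 higher and 1 lower, depended on the setting. DESeq2 called 422 (279 higher, 143 lower), no filter on low counts 407 (285 and 122), all chromosomes 20 (15 and 5), 12 libraries in the fit 280 (158 and 122), voom with sample quality weights 777 (445 and 332) and sex as a term 0 (0 and 0). The count of lower genes was 2 with RLE size factors. Leaving out 1 library at a time gave 0 to 649 called genes, 0 to 321 higher and 0 to 328 lower, with 649 without WT for Fezf2 B, 15 without WT for Fezf2 C, 2 without WT for Aire C and 0 without WT for Fezf2 A, WT for Aire A or WT for Aire B, where 2057, 1164 and 1134 genes had an unadjusted p under 0.05. Genes whose groups do not overlap numbered 4264 to 5570 in these fits. Log2 fold changes that turned sign were those of Ddit4 (-0.045 without WT for Fezf2 B, with a range of -0.045 to 0.696 over the libraries left out), Tnc (-0.055 without WT for Fezf2 A, -0.112 without C, range -0.112 to 0.46) and Fezf2 (-0.014 with no filter, -0.093 without WT for Fezf2 B, -0.091 without WT for Aire B, -0.082 with voom, range -0.093 to 0.091). The cause was not tested. No paired analysis was possible because the columns carry barcodes and no replicate numbers.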
